A study of Schmidtea mediterranea with 2 samples.

Results

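After foxA RNAi, 1 class of planarian trunk cells was missing, and a further 100 genes had the lowest ratios of foxA RNAi over control RNAi among the cells that remained. These 100 genes are described here: which cells hold them, and whether fewer cells or a lower level per cell account for their fall. They were chosen from single-cell RNA sequencing counts in 4 steps. Cells with fewer than 200 genes were removed. Cells with at least 2 unique molecular identifiers (UMIs, each a counted RNA molecule) of SMESG000043649.1 or SMESG000065348.1, the genes that mark the missing class, were left out. UMIs were summed per library over the other cells and written as counts per 1000000 (CPM). Of the 11459 genes with at least 100 UMIs over both libraries, out of 22016 features, the 100 with the lowest log2 ratio of foxA RNAi over control RNAi (1 CPM added to each) were kept, passing over 12 genes that were over 5-fold enriched in the left-out control cells.

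The animals were the freshwater planarian Schmidtea mediterranea, strain CIW4. One library came from animals given foxA RNAi and the other from animals given control RNAi, so each condition has 1 library, and trunks of 50 animals were pooled for each. Cells with intact membranes and nuclei, picked by calcein and DRAQ5 dyes in a sorter, were run on the 10x Genomics platform, and 16S ribosomal cDNA was cut with 30 guides and followed by 10 added PCR cycles. The study's title ties foxA to fate boundaries in planarian stem cells. With 1 library per condition there is no replicate check, so no test was possible, and all intervals cover counting error only. The files pair no identifier with a gene name, so the level of foxA itself and the functions of the members are not described, and gene copies with near-identical sequence could not be set apart.

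Planarians renew their tissues throughout life from dividing stem cells called neoblasts, whose progeny differentiate into all cell types. FoxA is a forkhead transcription factor that planarians need to make and maintain the pharynx, the muscular feeding tube that lies in the trunk. A gene's summed level in a tissue falls when the cells that make it become fewer, when each such cell makes less of it, or through both.

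The foxA RNAi library kept 6781 cells and 7840511 UMIs, with a median of 904 UMIs per cell, and the control RNAi library kept 5871 cells outside the left-out class and 4213999 UMIs, with a median of 561. The left-out class had 0 foxA RNAi cells and 107 control RNAi cells, 1.79% of the control cells. Because the foxA RNAi library was deeper, shares of cells with a UMI were compared after thinning each cell to 400 UMIs, which kept all 6781 foxA RNAi cells and 4448 control RNAi cells and dropped 1423 control cells as too shallow. The libraries share 13 cell barcodes.

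The log2 ratios of the members ran between -7.87 and -1.38, with a median of -1.93, against a median of 0.08 over all 11459 genes. These ratios chose the members and are given as a description. A log2 ratio at or below -1 was found for 2.26% of all genes and for all 100 members, which the rule fixes. Members had a median of 8.04 CPM in the foxA RNAi library and 42.0 CPM in the control RNAi library, or 63 and 177 UMIs, against 39.0 CPM and 36.5 CPM over all genes. They were thus near the typical gene in the control RNAi library and low in the foxA RNAi library, as the rule fixes. In the foxA RNAi library 4 members had 0 UMIs and 6 had 1 to 3. The rule's edge fell between close values. The last members inside, SMESG000062999.1 and SMESG000011499.1, both stood at -1.38, and the next genes outside, SMESG000024234.1 and SMESG000030911.1, at -1.38 and -1.37.

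To see which cells hold the members, the cells outside the left-out class were clustered on 2000 variable genes without the members and without the 12 genes passed over. This gave 25 clusters, numbered by size and described by their leading genes. For 92 of the 100 members, over 50% of the control UMIs lay in 1 cluster, a concentration seen in 20.1% of all genes. The median member had 79.9% of its control UMIs in its leading cluster, against 32.9% over all genes. Control counts also chose the members, so this concentration is given as a description. The leading clusters were 12 in number, and 6 of them led at least 5 members each and 83 members together. Cluster 3 led 30 members, cluster 16 led 19, cluster 12 led 15, cluster 7 led 7, and clusters 14 and 19 led 6 each. Clusters 9, 18 and 22 led 4 each, clusters 6 and 24 led 2 each, and cluster 4 led 1.

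**Figure D1:**
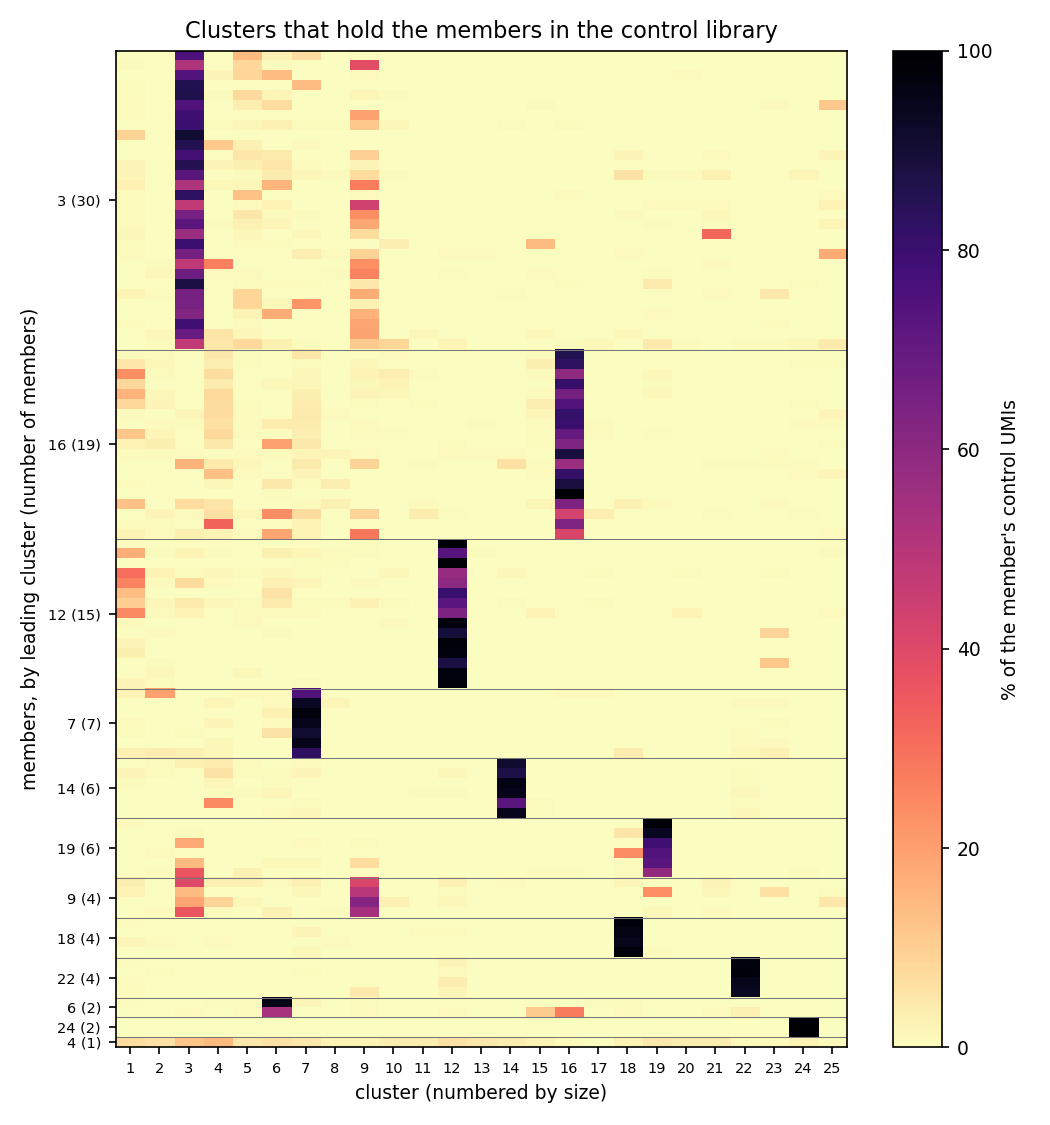
Share of each member's control RNAi UMIs in each cluster, with 1 row per member grouped by leading cluster, the clusters numbered by size along the x axis and the share as colour. Darker colour is a higher share. Most rows have a single dark cell, and 92 of the 100 members have over 50% of their UMIs in 1 cluster.

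Each log2 ratio was then split into 2 parts that add up to it. Control RNAi cells were weighted so that every cluster took the share of cells it had in the foxA RNAi library; the change this made is the part from cell numbers alone, and the remainder is the part from level per cell. The median part from cell numbers was -0.16 for the members and -0.02 for all genes. It was -0.38 for the members when each control cell was weighted by the libraries of its 50 nearest neighbours in place of its cluster. The median part from level was -1.74 for the members and 0.09 for all genes. The level part exceeded 50% of the fall for 88 members. Over all genes, rising or falling, it exceeded 50% of the log2 ratio for 77.1%, so the count says little of the members. A numbers part at or below -1 was found for 0.349% of all genes and for 19 members, of which 16 were led by cluster 16. A level part at or below -1 was found for 1.57% of all genes and for 87 members. The level part holds everything that the clusters do not capture, including a shift of cells within a cluster.

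**Figure D2:**
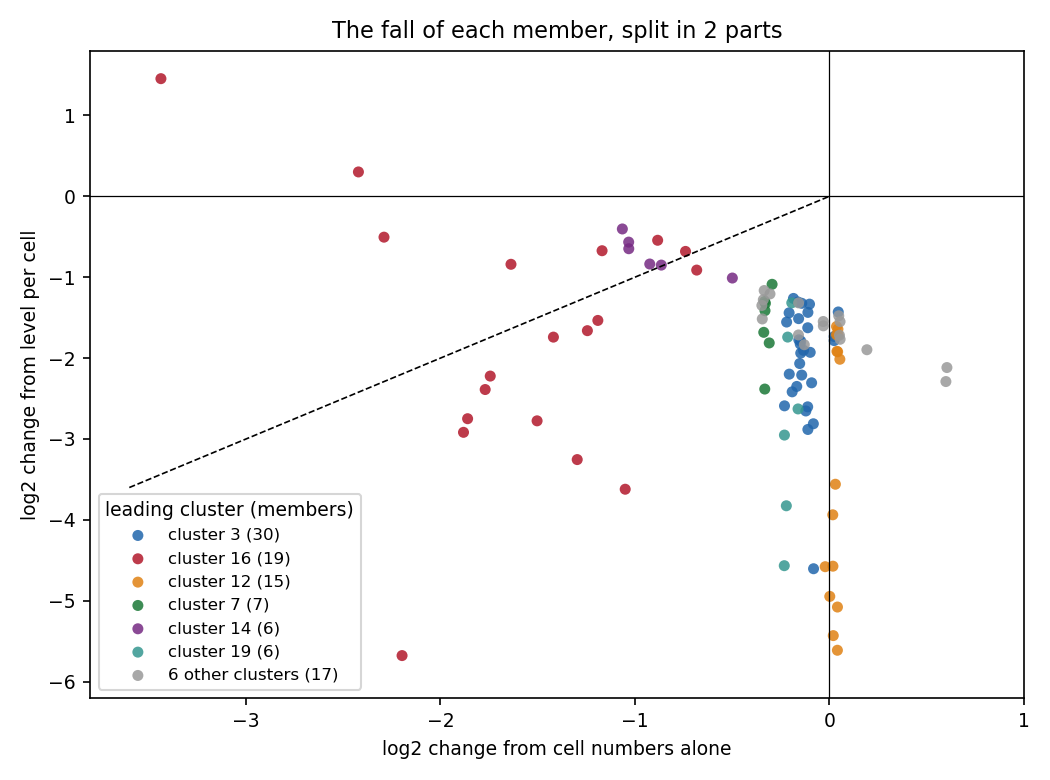
Log2 change of each member from cell numbers alone (x axis) and from level per cell (y axis), foxA RNAi over control RNAi, coloured by leading cluster. Members led by cluster 16 spread far to the left, down to -3.44, while the members led by clusters 3, 12 and 19 lie near 0 on the x axis and low on the y axis.

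Cluster 16 was the group of members whose cells became fewer. It held 13 foxA RNAi cells, 0.192% of that library (exact Clopper-Pearson 95% interval 0.102% to 0.328%), and 190 control RNAi cells, 3.24% of that library (2.80% to 3.72%). The log2 ratio of the shares was -4.08 (-5.01 to -3.27). Of its control cells, 5 carried 1 UMI of the genes that mark the left-out class. The 19 members it led were enriched in the left-out control cells by a median of 2.52-fold, and 11 of the 14 members with over 2-fold enrichment were among them. Over all 11459 genes, 669 had over 2-fold enrichment. The rule capped the enrichment of members at 5-fold.

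The lowest ratio of all belonged to a cluster 16 member, SMESG000036225.1, with 6 UMIs (0.765 CPM) in the foxA RNAi library and 1742 UMIs (413 CPM) in the control RNAi library. At least 2 UMIs of it were found in 1 foxA RNAi cell and 178 control RNAi cells. Its log2 ratio of -7.87 split into -2.20 from cell numbers and -5.68 from level, and its enrichment in the left-out class, 4.96-fold, lay just under the limit of the rule. SMESG000033462.1, enriched 4.97-fold, had 55 UMIs in the foxA RNAi library and 856 in the control RNAi library, and 1 foxA RNAi cell held 96.4% of the 55. SMESG000030689.1 had 86 UMIs in the foxA RNAi library and 1178 UMIs in the control RNAi library. It reached 2 UMIs in 2 foxA RNAi cells and 145 control RNAi cells, so few foxA RNAi cells carried it at that level. SMESG000007344.1 had 2 UMIs in the foxA RNAi library against 143 in the control RNAi library, and SMESG000017238.1 had 3 against 138.

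The 2 parts are hard to read for cluster 16, because the 13 foxA RNAi cells differed from the 190 control cells in more than number. Of the 19 members, 3 were seen in the foxA RNAi cells of the cluster, and all 19 in its control cells. After thinning, the median member was detected in 0% of the foxA RNAi cells and 24.5% of the control RNAi cells. The cluster's leading genes stood apart as well: SMESG000045893.1 was at 16033 CPM in its foxA RNAi cells and 2161 CPM in its control cells, and SMESG000000553.1 at 9687 CPM and 1088 CPM. The median split over the 19 members was -1.50 from numbers and -1.66 from level. The numbers part depends on which library is weighted: with foxA RNAi cells weighted to the control shares of clusters its median was -0.02. Outside the cluster the members had 1340 UMIs in the foxA RNAi library and 2194 in the control RNAi library, and 17 of the 19 were lower there too.

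A pair of cluster 16 members did not follow the others. SMESG000033795.1 had 300 UMIs (38.3 CPM) in the foxA RNAi library and 715 UMIs (170 CPM) in the control RNAi library, yet inside cluster 16 its level was 7432 CPM in the foxA RNAi cells and 4914 CPM in the control cells. SMESG000033798.1 had 61 UMIs overall in the foxA RNAi library and 142 in the control RNAi library, and 1336 CPM and 1096 CPM within the cluster. For these members the numbers part, -2.42 and -3.44, exceeded the whole ratio, -2.12 and -1.98. The cells with at least 2 UMIs were nevertheless about as many, 24 foxA RNAi and 26 control RNAi cells for SMESG000033795.1 and 11 in each library for SMESG000033798.1. In the control RNAi library 5 cells held 56.4% and 73.9% of their UMIs. Outside the cluster both were higher in the foxA RNAi library, with 211 UMIs against 83 in the control RNAi library for SMESG000033795.1 and 45 against 1 for SMESG000033798.1. They were the only members of the 100 with a level part above 0, at 0.30 and 1.45. SMESG000018952.1 was the third member with a large numbers part, -2.29 of -2.79, and had 26 UMIs in the foxA RNAi library against 122 in the control RNAi library. Here 5 control cells held 83.6% of the 122, and a UMI was seen in 26 foxA RNAi cells and 23 control RNAi cells. Outside cluster 16 it was at 3.32 CPM in the foxA RNAi library and 3.43 CPM in the control RNAi library, and its log2 ratio without that cluster was -0.03.

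Cluster 14 was the other cluster with a clear fall in cells. It had 96 foxA RNAi cells (1.42%) and 184 control RNAi cells (3.13%), a log2 ratio of -1.15 (-1.52 to -0.78), and its leading genes were SMESG000006021.1 and SMESG000048775.1. Its 6 members had a median of -0.98 from numbers and -0.74 from level, and the level part exceeded 50% of the fall in 1 of them. SMESG000019976.1 had 879 UMIs (112 CPM) in the foxA RNAi library and 1314 UMIs (312 CPM) in the control RNAi library. Inside the cluster it was at 9233 CPM in foxA RNAi cells and 11211 CPM in control cells, so most of its ratio of -1.47 came from numbers (-1.06). SMESG000019977.1, at 520 and 803 UMIs, split into -0.50 from numbers and -1.01 from level, and was the exception among the 6. At equal depth the median of the 6 members was detected in 35.4% of the cluster's foxA RNAi cells and 36.0% of its control RNAi cells, but 5 of the 6 were detected less often in the foxA RNAi cells. These included SMESG000019977.1 (54.2% against 68.3%) and SMESG000019976.1 (64.6% against 78.4%).

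Cluster 3, led by SMESG000053016.1 and SMESG000023745.1, held the most members and kept most of its cells. It had 549 cells in each library, 8.10% of the foxA RNAi cells and 9.35% of the control RNAi cells, a log2 ratio of -0.21 (-0.38 to -0.03). The level part exceeded 50% of the fall for all 30 of its members, with medians of -0.14 from numbers and -1.86 from level. Summed over the 30 members, the level in the cluster was 9289 CPM in foxA RNAi cells and 33618 CPM in control RNAi cells. At least 1 member was seen in 305 of the foxA RNAi cells (55.6%) and 386 of the control RNAi cells (70.3%), although the foxA RNAi cells of this cluster were deeper, with a median of 770 UMIs against 525. After thinning, the median member was detected in 1.55% of the foxA RNAi cells and 3.86% of the control RNAi cells. A cell with 0 UMIs at this depth may still express the gene.

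The abundant members of cluster 3 were carried by few cells at high counts. SMESG000061387.1, the member with the most control UMIs, had 1127 UMIs (144 CPM) in the foxA RNAi library and 3224 UMIs (765 CPM) in the control RNAi library. At least 2 UMIs of it were found in 7 foxA RNAi cells and 8 control RNAi cells, so its ratio of -2.40 rested on few cells. At equal depth, positive cells averaged 20.4 UMIs in the foxA RNAi library and 59.6 in the control RNAi library. SMESG000014460.1 had 768 UMIs (97.9 CPM) in the foxA RNAi library and 2731 UMIs (648 CPM) in the control RNAi library. It reached 2 UMIs in 55 foxA RNAi cells and 53 control RNAi cells, with 6.09 and 15.8 UMIs per positive cell at equal depth. SMESG000040636.1 had 1537 UMIs (196 CPM) in the foxA RNAi library and 2596 UMIs (616 CPM) in the control RNAi library, and reached 2 UMIs in 61 and 73 cells. At equal depth the log2 ratio of UMIs per positive cell was -1.55 for SMESG000061387.1, -1.38 for SMESG000014460.1 and -0.76 for SMESG000040636.1, and that of the share of positive cells was -1.47, -0.86 and -0.94. Both measures were thus lower in the foxA RNAi library for all 3 genes, with the share of cells the larger for SMESG000040636.1 alone. For SMESG000061387.1 the share rested on 11 foxA RNAi and 20 control RNAi cells. Without thinning, the log2 ratio of cells with at least 2 UMIs had an interval spanning 0 for all 3. It was -0.40 (-2.10 to 1.26), -0.15 (-0.73 to 0.42) and -0.47 (-0.98 to 0.04), in the same order.

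Other members of cluster 3 show how much 1 cell can weigh. SMESG000024498.1 had 930 UMIs (119 CPM) in the foxA RNAi library and 1642 UMIs (390 CPM) in the control RNAi library, but 1 foxA RNAi cell held 97.8% of the 930. With each library's highest cell set to 0 its log2 ratio was -6.35, against -1.71 with it. SMESG000064050.1 had 1 UMI in the foxA RNAi library and 118 in the control RNAi library, and 1 control cell held 27.1% of the 118.

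Cluster 12 had the members with the most extreme concentration. Its cells did not become fewer: it had 170 foxA RNAi cells (2.51%) and 142 control RNAi cells (2.42%), a log2 ratio of 0.05 (-0.28 to 0.38). Its 15 members had medians of 0.04 from numbers and -3.56 from level. At least 1 of them was seen in 14 foxA RNAi cells (8.24%) and 25 control RNAi cells (17.6%). The leading gene of the cluster, SMESG000040790.1, stood at 92966 CPM in its foxA RNAi cells and 42119 CPM in its control cells.

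For 8 of these 15 members no foxA RNAi cell had more than 3 UMIs, and together they had 23 UMIs in the foxA RNAi library and 1121 in the control RNAi library. Of the 1121 control UMIs, 85.7% lay in 5 control cells, 4 of cluster 12 and 1 of cluster 1. The first of these cells had 147 UMIs of SMESG000072807.1, 103 of SMESG000072804.1 and 34 of SMESG000001159.1, and the second had 48, 29 and 34. The other 3 cells had 0 UMIs of the first 2 genes and carried SMESG000062609.1 (55, 25 and 65 UMIs) and SMESG000079865.1 (30, 33 and 51 UMIs). SMESG000001159.1 was found in all 5 cells, while the other 7 genes divided between the first 2 cells and the last 3. In 1 of the 5 cells they made up 39.4% of its 802 UMIs.

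The folds of these genes are accordingly large but rest on very few cells. SMESG000072807.1 had 0 UMIs in the foxA RNAi library and 196 in the control RNAi library, at least 121.6-fold lower when 3 counts are taken as the floor for the library. SMESG000062609.1 had 0 and 175 UMIs (at least 108.5-fold lower), and SMESG000072804.1 had 0 and 134 UMIs (at least 83.1-fold lower). At least 2 UMIs of SMESG000072807.1 were found in 0 foxA RNAi cells and 2 control RNAi cells, a difference in cells that was not detectable at this depth. The remaining 7 members of the cluster had less extreme ratios but also rested on few cells. For each of the 15 members, 5 control cells held at least 73.8% of the control UMIs, and for SMESG000065254.1 they held 97.4%. SMESG000057709.1 had 164 UMIs (20.9 CPM) in the foxA RNAi library and 290 UMIs (68.8 CPM) in the control RNAi library, and SMESG000065254.1 had 140 and 232 UMIs. The log2 ratio of SMESG000065254.1, -1.57, turned to 2.65 under a filter of 500 genes per cell.

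Cluster 19, led by SMESG000061227.1 and SMESG000077545.1, had similar shares of cells in both libraries, and its members were lower in level. Their log2 ratios ran between -4.80 and -1.51. It had 55 foxA RNAi cells (0.811%) and 56 control RNAi cells (0.954%), a log2 ratio of -0.23 (-0.80 to 0.33). The summed level of its 6 members within the cluster was 4063 CPM in foxA RNAi cells and 57994 CPM in control RNAi cells. At equal depth the median member was detected in 16.4% of the foxA RNAi cells and 42.0% of the control RNAi cells. SMESG000064442.1 had 0 UMIs in the foxA RNAi library and 113 in the control RNAi library, at least 70.1-fold lower, and at equal depth was found in 0 of 55 foxA RNAi cells and 17 of 44 control RNAi cells of the cluster. SMESG000061917.1 had 333 UMIs (42.5 CPM) in the foxA RNAi library and 1262 UMIs (299 CPM) in the control RNAi library, and reached 2 UMIs in 37 and 60 cells. SMESG000036609.1 had 54 and 545 UMIs and reached 2 UMIs in 6 and 34 cells. Unlike in cluster 12, no single control cell held more than 10.1% of these 3 genes. Over the 6 members, however, 5 control cells held between 28.8% and 58.4% of a member's control UMIs.

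Cluster 7, led by SMESG000068743.1 and SMESG000029602.1, had 333 foxA RNAi cells (4.91%) and 370 control RNAi cells (6.30%), a log2 ratio of -0.36 (-0.58 to -0.14). Its 7 members were spread over many cells at about 1 UMI each, and had medians of -0.33 from numbers and -1.41 from level. SMESG000061762.1 had 477 UMIs (60.8 CPM) in the foxA RNAi library and 804 UMIs (191 CPM) in the control RNAi library. At equal depth it was detected in 25.8% of the foxA RNAi cells and 42.5% of the control RNAi cells of the cluster. SMESG000046999.1 was detected in 11.1% and 23.9%, with 195 and 361 UMIs in all. At about 1 UMI per positive cell, a change in level per cell can only show as a change in detection.

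**Figure D3:**
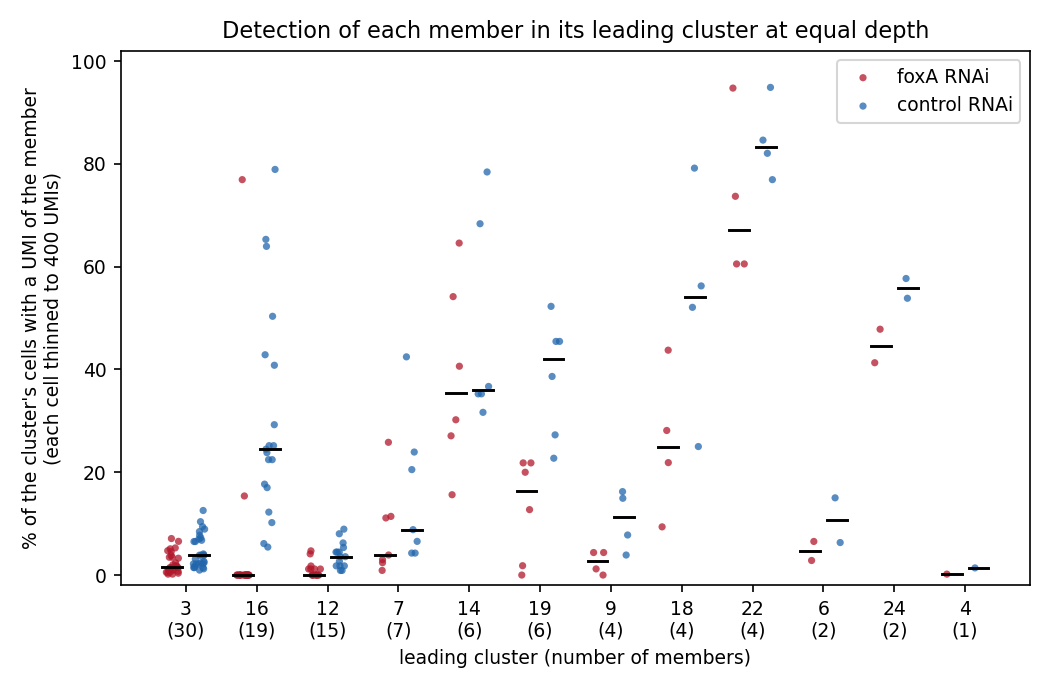
Percent of a leading cluster's cells with a UMI of each member after thinning to 400 UMIs per cell, foxA RNAi left of control RNAi for each cluster; points are members and bars are medians. In cluster 19 the medians are 16.4% and 42.0%, in cluster 14 they are 35.4% and 36.0%, and in cluster 12 all members are below 10% in both libraries.

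The other 17 members were led by clusters of which none had a share ratio with an interval below 0. The genes named in this paragraph were chosen after their values were seen, 1 for each of these clusters. In cluster 22 (38 foxA RNAi and 42 control RNAi cells) every cell had at least 1 of the 4 members in both libraries, and SMESG000038124.1 averaged 6.26 UMIs per foxA RNAi cell and 13.7 UMIs per control RNAi cell of the cluster at equal depth. In cluster 18 (64 and 53 cells) SMESG000058994.1 was detected at equal depth in 28.1% of the foxA RNAi cells and 56.2% of the control RNAi cells. Cluster 24 had a larger share of the foxA RNAi cells (46 cells) than of the control RNAi cells (26 cells), so the numbers part of SMESG000066667.1 was 0.60 and its level part -2.12. These 3 clusters held most of the UMIs of their members. In cluster 9 SMESG000034974.1 was detected in 0 of 251 foxA RNAi cells and 25 of 154 control RNAi cells at equal depth. It had 64 of its 69 foxA RNAi UMIs outside the cluster and was 2.67-fold enriched in the left-out control cells. Over the 4 members of cluster 9 the median detection was 2.79% in foxA RNAi cells and 11.4% in control RNAi cells. In 1 of the 4 it went the other way, at 4.38% and 3.90%. In cluster 6 SMESG000030599.1 was detected in 6.54% and 15.0% of cells. Cluster 4 had 14.4% of the control UMIs of SMESG000040582.1, which was spread over many clusters.

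Over the whole library, the shares of cells and the UMIs per positive cell were compared as well, measures that hold the part from cell numbers too. The share of cells with a UMI at equal depth was lower in the foxA RNAi library for 99 of the 100 members, with a median log2 ratio of -1.48 against 0.08 over all genes. A log2 ratio of this share at or below -1 was found for 1.75% of all genes and for 76 members. UMIs per positive cell could be compared for 58 members, those with at least 1.5 UMIs per positive control cell and at least 5 positive cells in each library. The limit of 1.5 was set on the control RNAi library alone, which favours a lower foxA RNAi value. The same ratio over all genes is not given. Of these, 54 were lower in both the share of cells and the UMIs per positive cell. Their median log2 ratios were -1.20 for the share and -0.79 for the UMIs per positive cell, and the share was the larger part for 40 of them. These measures come from the counts that chose the members, so their direction is no independent evidence.

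Cells with at least 2 UMIs were also counted, without thinning, so that the deeper foxA RNAi library had the better chance of reaching 2. The ratio of cells with at least 2 UMIs had a counting interval below 0 for 1.22% of all genes and for 53 members, while for 47 members the interval spanned 0. These counts also chose the members, so the excess over all genes is no independent evidence. At equal depth the log2 ratio of the share of cells with at least 2 UMIs had a median of -1.97. By leading cluster, the interval without thinning was below 0 for 17 of 19 members of cluster 16, 6 of 6 of cluster 14 and 5 of 6 of cluster 19. It was below 0 for 5 of 7 of cluster 7, 12 of 30 of cluster 3 and 2 of 15 of cluster 12. In the control RNAi library 5 cells held at least 50% of the UMIs of 40 members, against 1.75% of all genes. For 5 members 1 cell held at least 50%, against 0.367% of all genes. The median number of control cells holding 50% of a gene's UMIs was 8 for the members and 61 for all genes. The rule favours high control counts, including those carried by few control cells, so these gaps are no independent evidence.

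**Figure D4:**
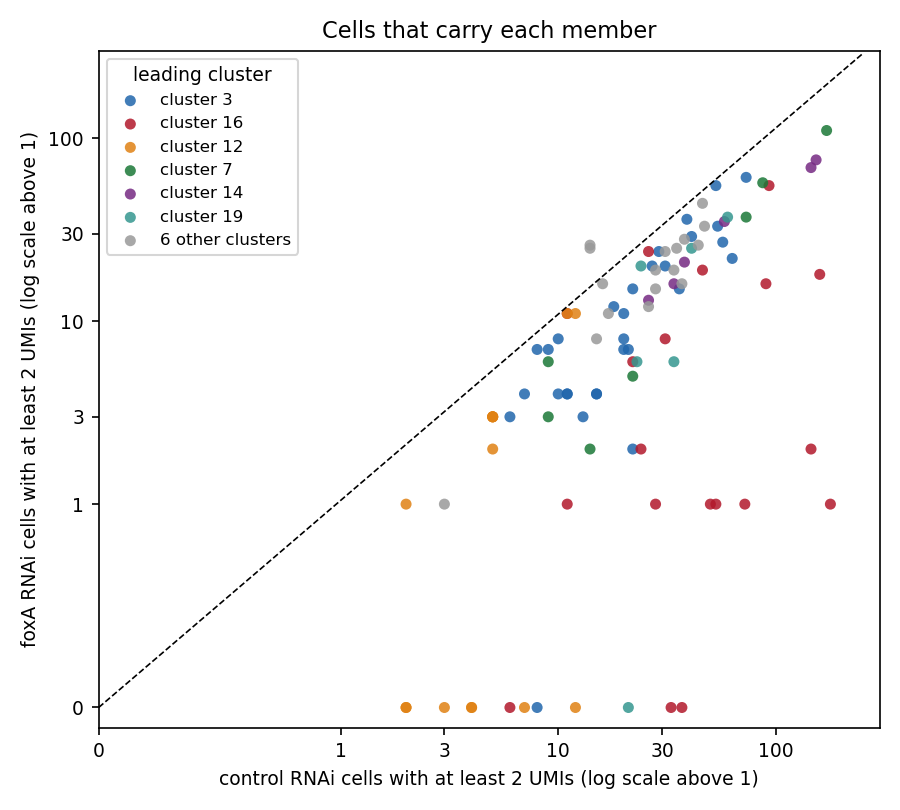
Cells with at least 2 UMIs of each member in the foxA RNAi library (y axis) and the control RNAi library (x axis), both on a log scale above 1, coloured by leading cluster. SMESG000036225.1 of cluster 16 lies at 1 and 178 cells, while members of cluster 12 lie at the lower left with at most 12 cells in either library.

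The surroundings of the cells were also examined without clusters. For each control RNAi cell, the share of foxA RNAi cells among its 50 nearest neighbours was computed, scaled so that an even mix of the libraries gives 50%. Its median was 39.2% over all control cells. For each member, the mean was taken over control cells with at least 2 UMIs of it. The median of these means over members was 10.7% for cluster 16 and 28.9% for cluster 14. It was 31.9% for cluster 6, whose own share of cells had a log2 ratio of -0.02. It was 36.6% for cluster 9, 37.4% for cluster 3, 37.6% for cluster 18 and 38.6% for cluster 12. For clusters 7 and 19 it was 40.2% and 40.8%. These values lie near the median over all control cells. It was 48.2% for cluster 22, 51.8% for cluster 4 and 58.0% for cluster 24.

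The 81 members led by clusters other than 16 had medians of -0.14 from numbers and -1.77 from level. For 76 of the 81 the level part exceeded 50% of the fall. Over all genes, rising or falling, it exceeded 50% of the log2 ratio for 77.1%.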

How the data were processed

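The deposited matrices hold UMI counts per gene and cell, made by the authors with Cell Ranger (6.1.2 per the file headers, 7 per the submitters' processing notes); the genome build and annotation are not given in the sources used here. Both libraries were analysed, with 1 per condition, so no test was run and differences are read against counting error. Members and lists were chosen with earlier results of these data known. Counts were summed per library, scaled to 1000000 and compared as log2 of CPM + 1. Clusters came from scanpy 1.11.5 (counts scaled to 10000 per cell, natural log, scaled values limited to 10, 30 components, 15 neighbours, Leiden resolution 0.5). The split was run on simulated libraries drawn from control cells of known cluster, with levels lowered evenly in randomly picked genes. Such a check cannot speak to cells that differ within a cluster or to genes carried by few cells. Intervals are exact at 95%, Clopper-Pearson for shares and conditional binomial for ratios. UMIs of 1 cell are not independent samples. A foxA RNAi count of 0 was set to a floor of 3 counts per library. Scrublet called 0 foxA RNAi cells and 1 control RNAi cell, so it did not work and doublets were kept. The filter of 200 genes per cell removed 17 foxA RNAi cells and 78 control RNAi cells. Named members were those with the 10 lowest ratios, the 5 highest control counts, the 2 highest control counts in each cluster leading at least 5 members, the 3 largest falls in each part, and those at the edge of the rule. Alternatives covered filters, the left-out cells, pseudocounts, scaling, depth, doublets, clustering, weights and the gene filter.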

Additional observations from a re-analysis of the deposited data

Results flagged for a closer look

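Among clusters in which a member had at least 50 UMIs over both libraries, 3 members had opposite directions. The foxA RNAi over control RNAi ratio was below 0 in 1 cluster and above 0 in another, with counting intervals that leave out 0. The difference between the clusters was not tested, since each condition has 1 library, and most of these values rest on 1 cell. SMESG000026569.1 had a log2 ratio of 1.13 in cluster 9 (57 foxA RNAi and 14 control RNAi UMIs, in 9 and 6 cells) and -3.97 in cluster 5 (8 and 48 UMIs, in 1 and 2 cells, with 47 of the 48 in 1 cell). SMESG000040636.1 had 5.69 in cluster 11 (137 foxA RNAi UMIs and 1 control RNAi UMI, in 1 cell each) and -1.77 in cluster 3. SMESG000061387.1 had 5.62 in cluster 19, taken against the floor of 3 counts (233 foxA RNAi and 0 control RNAi UMIs, all 233 in 1 cell), and -7.00 in cluster 1 (4 and 291 UMIs, in 4 and 2 cells, with 290 of the 291 in 1 cell).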

How the results depend on the processing

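No paired analysis was possible because foxA RNAi and control RNAi have 1 library each, so none could be left out either. The alternatives without cluster 16 and with each gene's highest cell set to 0 were chosen after seeing the data. The median part from cell numbers, -0.16, was -0.24 when cells with 1 or more UMIs of either rule gene were left out, -0.14 with 10 CPM added, -0.11 with the highest 5% of doublet scores removed, -0.11 with the members kept among the variable genes, -0.12 with foxA RNAi cells weighted to control shares, -0.38 with neighbourhood weights and -0.14 without cluster 16. With 10 CPM added, the median ratio was -1.40 and the median level part -1.15. The median share at equal depth was -1.97 when at least 2 UMIs were asked for. The cause of these moves was not tested. The members with over 50% of the fall from level numbered 80 to 95 over the alternatives, and those with over 50% of control UMIs in 1 cluster 70 to 97. With at least 500 genes per cell, 95 of the 100 members were below 0. Among the named members the reversals were SMESG000065254.1 at 2.65 under that filter and, without cluster 16, SMESG000033795.1 at 0.39 and SMESG000033798.1 at 2.44. Without cluster 16 the median numbers part of the members led by that cluster was 0.072, which its removal fixes. That median, -1.50, was -0.02 with foxA RNAi cells weighted to control shares. Of the 100 members, 48 were chosen again after thinning, 54 with at least 500 genes per cell, 65 with a gene filter of 50 UMIs and 55 with 200. TMM scaling (edgeR 4.0.16) moved the median of all genes, 0.08, to -0.00 and kept all 100. Whether depth limits the members carried by few cells more than the others was not tested.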

Other observations

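The 12 genes passed over for enrichment in the left-out class were all led by cluster 16. Their log2 ratios ran between -7.54 for SMESG000074377.1, with 8 UMIs in the foxA RNAi library and 1578 in the control RNAi library, and -1.45 for SMESG000024438.1, with 222 and 333 UMIs. SMESG000046770.1 had 0 UMIs in the foxA RNAi library and 194 in the control RNAi library. Their median numbers part was -1.45 and their median level part -1.25.

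The 100 genes with the highest ratios were also concentrated in single clusters, but less so in few cells. Their median log2 ratio was 2.34, of which 0.49 came from numbers and 1.83 from level. Over 50% of the UMIs lay in 1 cluster for 91 of them in the foxA RNAi library, against 92 members in the control RNAi library. Over all genes this held for 17.8% in the foxA RNAi library and 20.1% in the control RNAi library. At least 50% of the UMIs lay in 5 cells for 21 of the rising genes in the foxA RNAi library and for 40 of the members in the control RNAi library. The shares over all genes were 1.30% and 1.75% in those libraries. The median number of cells holding 50% of the UMIs was 23 and 8 in those libraries. Over all genes it was 110 in the foxA RNAi library and 61 in the control RNAi library. The 2 libraries thus differ in this measure for genes in general, and 23 and 8 are not directly comparable. Each set was also counted in the library where its ratio made it high.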
